A study of Saccharomyces cerevisiae BY4741 with 8 samples.

Results

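The subject is the vanillin response of the *YRR1* deletion strain of the yeast *Saccharomyces cerevisiae*, measured by RNA sequencing in 4 of the 8 libraries of the series. The members are the 2 libraries of BY4741(*yrr1*Δ) grown in synthetic SD medium with 5 mM vanillin and the 2 libraries of the same strain grown in SD medium alone, taken by their labels. BY4741 is a haploid laboratory strain, and the deletion strain was made from it by replacing *YRR1* with a kanamycin resistance cassette through homologous recombination. The other 4 libraries are BY4741 with *YRR1* intact, 2 from each medium, and they serve for the spread between replicates and for a test of the difference between strains. The replicates are biological duplicates. How many clones stand behind the deletion strain is not given in the sources used here. The headers of the deposited comparison tables name 6 mM vanillin where the labels name 5 mM, and the dose is given here as in the labels. Cultures started at an OD600 of 0.2 and were harvested in log phase at an OD600 of 1.6 to 2.0, so time in culture and growth rate cannot be told apart from vanillin itself.

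Vanillin is an aromatic aldehyde released from lignin and is toxic to yeast, which reduces it to vanillyl alcohol. Yrr1p is a zinc-cluster transcription factor of the pleiotropic drug resistance network, in which Pdr1p and Pdr3p activate membrane transporters such as Pdr5p through short promoter elements called PDREs. A separate system, the general stress response, acts through the zinc-finger factors Msn2p and Msn4p, which bind the stress response element, or STRE, with the letters AGGGG. Its targets make trehalose, glycogen, small protective proteins and antioxidants, and their transcripts fall when the protein kinase A pathway is active and rise when glucose runs low or cells are stressed.

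Many of the genes that fell carried STRE letters before their start codons, so 6 of them are shown. For each gene the deposited tables and the R64 genome give a window of 300 bases before the start codon, with the base next to the start codon counted as -1. AGGGG was searched on both strands, so that it also appears as CCCCT. The stretches below run from -300 to -101 in the direction of the gene, and capitals mark the STRE letters. *HSP12* encodes a small membrane-protecting stress protein, *MSC1* a protein linked to meiotic recombination, *PGM2* phosphoglucomutase, *DCS2* a relative of the decapping scavenger enzyme, *GND2* a 6-phosphogluconate dehydrogenase and *CYC7* the minor cytochrome c. The stretches lie at chrVI:106956-107155 (plus strand), chrXIII:16777-16976 (minus), chrXIII:477707-477906 (minus), chrXV:656964-657163 (plus), chrVII:1004324-1004523 (plus) and chrV:80078-80277 (minus), in that order.
HSP12: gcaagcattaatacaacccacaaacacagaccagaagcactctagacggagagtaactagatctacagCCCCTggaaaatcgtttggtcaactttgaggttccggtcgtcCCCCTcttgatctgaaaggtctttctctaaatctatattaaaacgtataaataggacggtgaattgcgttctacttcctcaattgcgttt
MSC1: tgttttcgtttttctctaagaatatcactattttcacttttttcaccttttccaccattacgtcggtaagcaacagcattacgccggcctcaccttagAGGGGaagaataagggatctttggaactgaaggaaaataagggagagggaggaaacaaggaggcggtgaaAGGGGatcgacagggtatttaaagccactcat
PGM2: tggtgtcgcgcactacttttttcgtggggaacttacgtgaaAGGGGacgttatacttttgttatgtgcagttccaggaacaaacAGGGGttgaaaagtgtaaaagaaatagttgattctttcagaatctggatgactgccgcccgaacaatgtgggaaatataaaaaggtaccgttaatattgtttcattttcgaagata
DCS2: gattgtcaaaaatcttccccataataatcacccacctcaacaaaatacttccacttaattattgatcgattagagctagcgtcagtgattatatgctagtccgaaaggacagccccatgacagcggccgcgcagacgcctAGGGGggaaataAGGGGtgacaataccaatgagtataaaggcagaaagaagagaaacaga
GND2: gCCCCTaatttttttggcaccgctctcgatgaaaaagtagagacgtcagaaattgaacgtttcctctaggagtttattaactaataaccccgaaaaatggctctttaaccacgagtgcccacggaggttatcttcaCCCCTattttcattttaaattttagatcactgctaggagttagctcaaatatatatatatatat
CYC7: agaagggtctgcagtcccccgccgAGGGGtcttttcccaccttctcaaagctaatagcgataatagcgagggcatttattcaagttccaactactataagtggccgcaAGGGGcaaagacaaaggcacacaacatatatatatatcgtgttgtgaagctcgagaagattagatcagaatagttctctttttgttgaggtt

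STRE letters were found in 54.2% of the windows of lowered genes (136 of 251), against 22.3% of the windows of all genes tested (1220 of 5472) and 16.9% of those of raised genes (26 of 154). A pair or more was present in 19.5% of the lowered, 3.4% of all and 0.649% of the raised genes. The share of genes that fell was 2.7% with no match (4252 genes), 8.41% with 1 match (1034 genes), 24.1% with 2 (158 genes) and 39.3% with 3 or more (28 genes). The share that rose went from 3.01% with no match to 2.42%, 0.633% and 0%. Median log2 fold changes in the deletion strain were 0.05, -0.12, -0.31 and -0.79 over the same classes, and in BY4741 they were -0.03, 0.00054, -0.06 and -0.17. Lowered genes that belonged to none of the gene lists used below held STRE letters in 65 of 130 windows. These are matches of letters and were not shown to be bound.

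**Figure D1:**
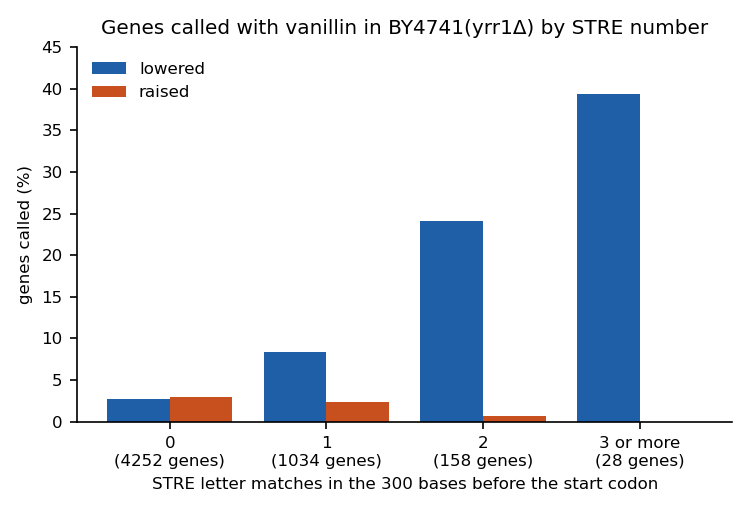
Share of genes tested that were lowered (blue) or raised (orange) with vanillin in BY4741(*yrr1*Δ), in percent, by the number of STRE letter matches in the 300 bases before the start codon. The lowered share is 2.7% with no match and 39.3% with 3 or more, while the raised share goes from 3.01% to 0%.

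PDRE and zinc elements were also searched in the same windows: the PDRE core (CCGCGG or CCGTGG, both strands) and the zinc-responsive element bound by Zap1p (ACCTTNAAGGT, both strands). The letters of the 3 elements cannot overlap one another. The stretches below, again from -300 to -101, are shown because *PDR3*, a drug resistance regulator, and *ICT1*, a lysophosphatidic acid acyltransferase, were the raised drug resistance genes with a pair of PDRE cores, and *ZRT1*, the high-affinity zinc transporter, held the one ZRE of a lowered gene. They lie at chrII:217170-217369 (plus), chrXII:341029-341228 (minus) and chrVII:20678-20877 (plus), and capitals mark the element.
PDR3: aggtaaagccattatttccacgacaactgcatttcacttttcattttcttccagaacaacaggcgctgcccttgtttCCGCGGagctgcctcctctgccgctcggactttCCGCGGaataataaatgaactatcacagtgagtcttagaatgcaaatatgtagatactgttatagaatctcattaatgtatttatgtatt
ICT1: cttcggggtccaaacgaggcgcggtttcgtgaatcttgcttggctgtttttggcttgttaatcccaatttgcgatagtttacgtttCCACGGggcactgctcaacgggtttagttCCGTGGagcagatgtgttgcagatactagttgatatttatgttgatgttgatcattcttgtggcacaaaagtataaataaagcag
ZRT1: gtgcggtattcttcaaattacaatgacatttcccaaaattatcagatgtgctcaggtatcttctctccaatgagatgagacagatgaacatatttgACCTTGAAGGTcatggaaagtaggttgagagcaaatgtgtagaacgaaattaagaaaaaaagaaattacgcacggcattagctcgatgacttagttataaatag
PDRE cores were present in 5.84% of raised genes (9), 7.17% of lowered genes (18) and 5.04% of all genes tested (276 of 5472), so the raised share was near that of all genes. The ZRE was found in 6 windows of all genes tested, or 0.11%.

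Library totals were 2195324 to 2453837 expected counts, an expected count being an estimate of the reads that belong to a gene. *YRR1* itself had 0 to 2 counts in the 4 deletion libraries and 73 to 100 in BY4741. *LEU2*, *URA3* and *MET17*, which BY4741 lacks, had 0 to 9 counts in the 8 libraries, and the MATa receptor gene *STE2* had 1236 to 1706 counts in the deletion libraries against 1 to 4 for *MF(ALPHA)1*. *HIS3* had 51 to 181 counts and *MET5* 300 to 585 counts in the 8 libraries, although the genotype given for BY4741 names both as mutated, and *MF(ALPHA)1* had 26 and 22 counts in BY4741 with vanillin. In a principal component analysis the first component held 41% of the variance and separated the vanillin libraries of both strains from the SD libraries. The median absolute log2 difference between the 2 replicates was 0.306 for the deletion strain in SD and 0.256 with vanillin, against 0.247 and 0.196 in BY4741.

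With vanillin, 251 of 5506 genes tested were lowered in BY4741(*yrr1*Δ), which is 4.56%, and 156 were raised, which is 2.83%. A gene was called when its adjusted p (FDR) from edgeR's quasi-likelihood test was at most 0.05 and its fold change was at least 2. The median over all genes tested was a log2 fold change of 0.01. At 4-fold or more, 57 genes were lowered and 22 raised. For all 407 called genes the 2 SD libraries did not overlap the 2 vanillin libraries, as was true for 55.1% of all genes tested. In a culture, fewer cells with a transcript and less of it per cell cannot be told apart. The split depended on scaling: with library size alone the median of all genes rose to 0.13 and the calls became 242 raised and 205 lowered. It also depended on single libraries, since without the first SD library of the deletion strain 96 genes were raised and 174 lowered, without its first vanillin library 81 and 142, and without its second vanillin library 107 and 84. With each library left out in turn, 73 of the lowered and 49 of the raised genes were called every time. Of 205 called genes named here and in the closing section, 105 lost the call without the second vanillin library of the deletion strain, 89 without the first, 60 and 49 without its first and second SD library, 37 without either vanillin library of BY4741 and 6 without either of its SD libraries. Below, a call that held in few of these 8 fits is given with their number.

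Gene length moved with the response. Lowered genes had a median length of 855 bases and raised genes 1594.5, against 1284 for all genes tested. Of 330 genes up to 400 bases, 12.4% were lowered and 0.606% raised, while of 526 genes over 3000 bases 1.14% were lowered and 5.7% raised. Spearman's correlation of length with the response was 0.365 over 5212 genes of the deletion strain and -0.118 in BY4741, and between the 2 SD replicates of the deletion strain it was -0.336, all given as descriptions over genes that share libraries. After removal of a smooth length trend from each library, a step chosen after the data were seen, 189 genes were lowered and 119 raised, and 170 of the lowered and 98 of the raised genes remained called. The STRE share of the lowered genes was then 54.0%, and the share that fell was 2.05%, 6.19%, 19.0% and 28.6% over the classes of STRE number. Below, members that remained called after this step are given as the number kept.

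**Figure D2:**
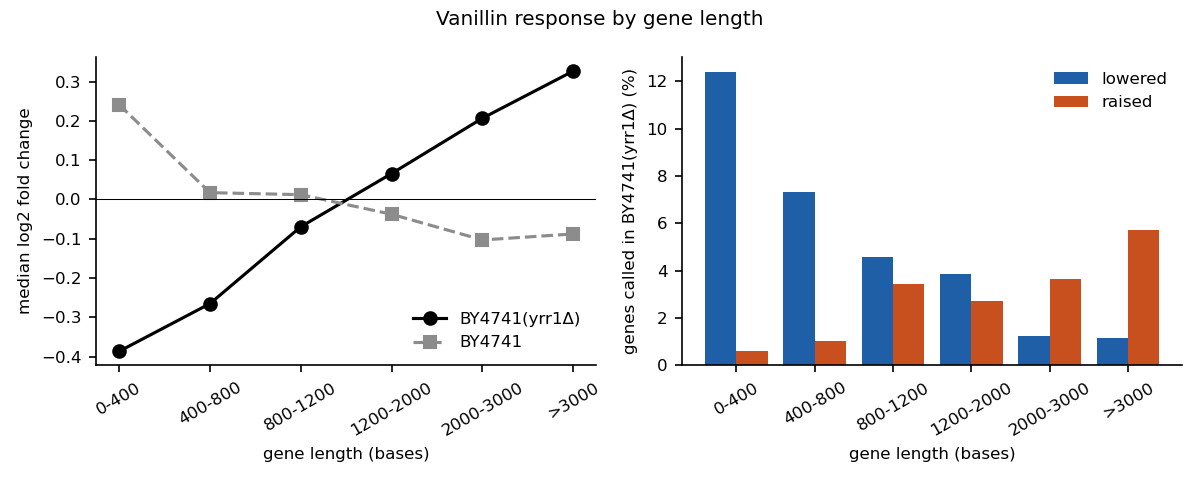
Left, median log2 fold change with vanillin against gene length in bases for BY4741(*yrr1*Δ) (circles) and BY4741 (squares). Right, percent of genes lowered and raised in BY4741(*yrr1*Δ) in the same length classes: lowered genes go from 12.4% in the shortest class to 1.14% in the longest, raised genes from 0.606% to 5.7%.

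The 15 largest decreases included stress genes (*HSP12*, *CTT1*, *SIP18*), genes of the pentose phosphate pathway (*SOL4*, *TKL2*, *GND2*) and the minor cytochrome c gene *CYC7*. *HSP12* (YFL014W) had 4348 and 2758 CPM (counts scaled to a common library size, normalised by TMM) in SD and 57.8 and 77.1 CPM with vanillin, a log2 fold change of -5.72 ± 0.32 (SE; edgeR FDR = 8.1e-05). The SD libraries were both high and the vanillin libraries both low. *FMP16*, a mitochondrial protein of unknown role, had 43.3 and 43.4 CPM in SD and no count in either vanillin library, which makes it at least 36.6-fold lower with a floor of 3 counts per library. On the same floor *CYC7* was at least 14.9-fold lower (19.3 and 16.0 CPM in SD), YCL048W-A at least 11.7-fold, *SIP18*, a hydrophilin, at least 6.09-fold and *HSP32* at least 4.24-fold. The *HSP32* counts are uncertain, because the gene has near-identical copies, and its call was lost with any 1 library left out. *ZPS1*, a cell wall protein induced by zinc shortage, went from 807 and 826 CPM to 26.7 and 15.7 CPM.
*HXT7*, a high-affinity hexose transporter, had 2090 and 2403 CPM in SD and 311 and 38.0 CPM with vanillin (log2 fold change -3.69 ± 0.79). Its 2 vanillin libraries differed widely from each other but both lay below SD, and its reads may be shared with the near-identical *HXT6*. *RTN2*, a reticulon of the endoplasmic reticulum, fell from 254 and 571 CPM to 32.7 and 43.0 CPM. *PNS1* (chrXV:636939-638558), a choline transporter homologue that lies next to *YRR1* with a gap of 1001 bases, fell from 475 and 389 CPM to 55.5 and 32.9 CPM (-3.29 ± 0.39) and fell in BY4741 too (-1.87). *DDP1*, a diadenosine polyphosphate hydrolase on the other side of *YRR1*, had a log2 fold change of -0.56 that did not pass the test (edgeR FDR = 0.11). Of the 15 largest decreases, all but *HSP32* (0.64) also had a negative log2 fold change in BY4741. There *HSP12* stood at -4.02, *HXT7* at -3.67, *RTN2* at -3.13, *CTT1* at -2.94, *MSC1* at -2.60 and *SIP18* at -1.64.

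**Figure D3:**
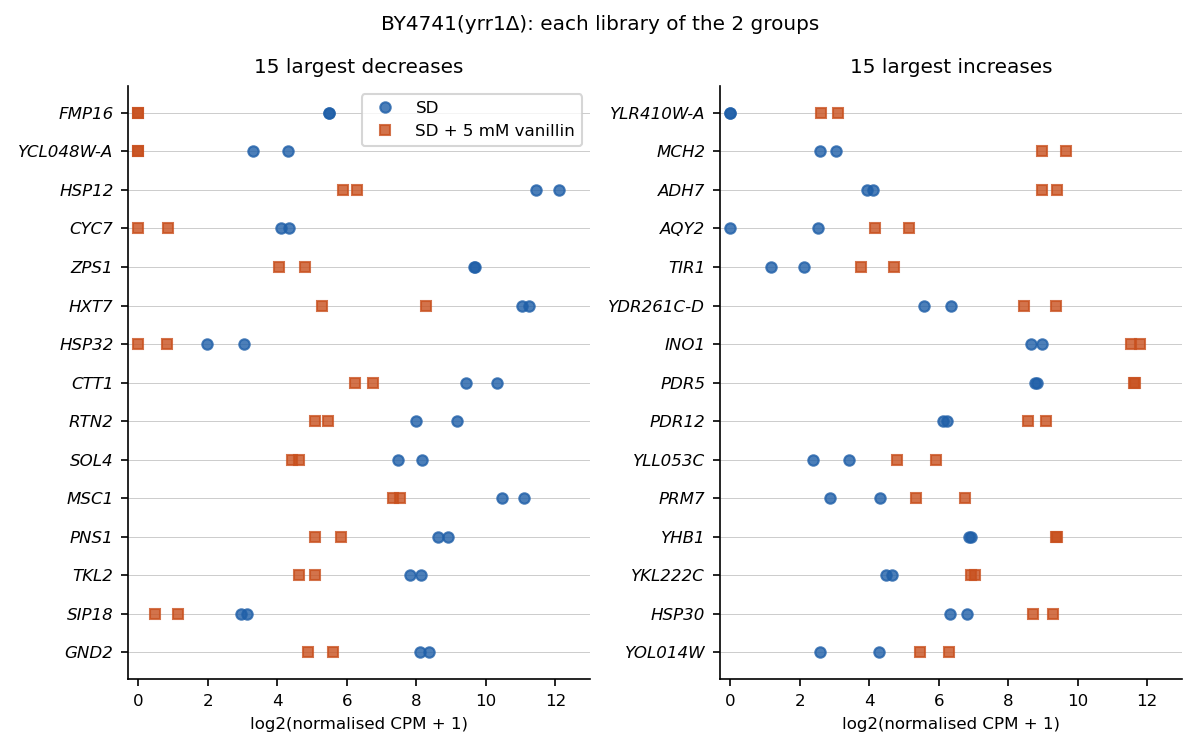
Level of the 15 genes with the largest decrease (left) and the 15 with the largest increase (right) among called genes, as log2(normalised CPM + 1), in each library of BY4741(*yrr1*Δ) in SD (blue circles) and with 5 mM vanillin (orange squares). In every gene shown both libraries of a group lie on the same side of both libraries of the other, as with *HSP12* at 4348 and 2758 CPM against 57.8 and 77.1 CPM. This held for all 407 called genes and for 55.1% of all genes tested.

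Among general stress and hydrophilin genes, 22 of 40 tested were lowered, or 55.0% against 4.56% of all genes. None was raised by edgeR (1 higher at unadjusted p under 0.05, 0 raised by DESeq2), the median was -1.73, and 20 of the lowered were kept with the length trend removed. *MSC1* fell from 1415 and 2197 CPM to 184 and 160 CPM (-3.39 ± 0.31). *GRE1*, a hydrophilin, had 197 and 177 CPM in SD and 31.9 and 23.1 CPM with vanillin (-2.76 ± 0.22; edgeR FDR = 0.0003). *OM45* and *OM14*, proteins of the mitochondrial outer membrane, changed by -2.74 and -2.26, and *TFS1*, an inhibitor of carboxypeptidase Y, by -2.44. *USV1*, a zinc-finger regulator of growth on non-fermentable carbon, fell from 60.2 and 82.1 CPM to 16.0 and 7.83 CPM (-2.58 ± 0.41). Further members were *RTC3* (-2.37), *HBT1* (-2.25), *PHM7* (-1.88), *TMA17* (-1.77) and *STF2* (-1.62). *SIP18* and *PAI3*, the inhibitor of vacuolar proteinase A, are divergent neighbours 650 bases apart, and *PAI3* changed by -2.54 from 7.70 and 8.84 CPM to 1.60 and 1.17 CPM. The list median in BY4741 was -0.52, with 11 of its members lowered and 2 raised. Lists share members, so their counts are not independent. The lowered *SOL4*, *NQM1*, *PAI3*, *TFS1*, *GRE3* and *ALD3* belong to other lists too, and *GUT2* to those of glycerol and respiration.

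**Figure D4:**
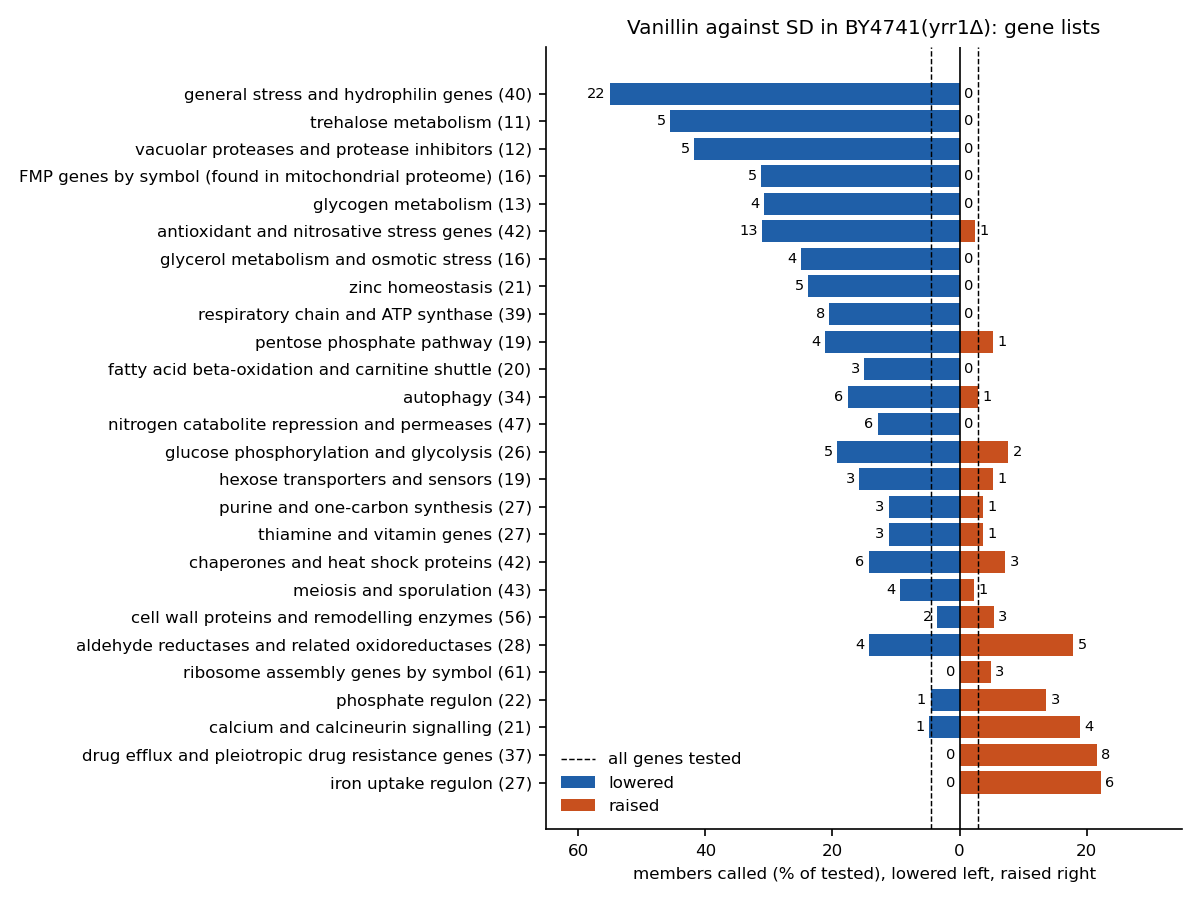
Percent of the tested members of each gene list that were lowered (blue, left) or raised (orange, right) with vanillin in BY4741(*yrr1*Δ), for lists with at least 3 members called in 1 direction; numbers beside bars are genes and numbers in parentheses members tested. Dashed lines mark 4.56% lowered and 2.83% raised among all genes tested; general stress genes stand at 55.0% lowered and drug efflux genes at 21.6% raised.

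Storage carbohydrate genes were among the lowered. In trehalose metabolism 5 of 11 genes were lowered (median -1.03; 5 kept) and in glycogen metabolism 4 of 13 (median -0.68; 4 kept). Without the second SD library these medians were -0.57 and -0.38, and the glycogen median was -1.23 without the first vanillin library and -0.39 without the second. *TPS1*, trehalose-6-phosphate synthase, went from 1254 and 1518 CPM to 469 and 388 CPM (-1.69 ± 0.28). *PGM2*, which makes the glucose-1-phosphate used by both pathways, fell from 713 and 1233 CPM to 138 and 122 CPM (-2.91 ± 0.49). Both vanillin libraries of each lay below both SD libraries. *UGP1*, which makes UDP-glucose, changed by -1.56, the trehalase *NTH2* by -1.03 and *TSL1*, a subunit of the trehalose synthase complex, by -1.70; the calls of *TSL1*, *NTH2* and *SGA1* held in 2, 3 and 3 of 8 fits. On the glycogen side the synthase *GSY2* changed by -1.67 and the degrading enzymes *GPH1*, *GDB1* and *SGA1* by -2.08, -2.35 and -1.15, so that genes of synthesis and of breakdown were both lower. *GSY1* had a log2 fold change of -1.85 and did not pass (edgeR FDR = 0.09).

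In the pentose phosphate pathway, which makes NADPH and pentoses, 4 of 19 genes were lowered and 1 raised (all kept), and in BY4741 3 were lowered and 2 raised. Each of the 4 lowered genes had a more abundant partner for the same step in SD. *GND2* had 183 and 253 FPKM (fragments scaled by gene length and library depth) in SD and 35.8 and 23.4 FPKM with vanillin, while *GND1*, the major enzyme for the same step, had 659 and 652 FPKM in SD and 2234 and 1621 FPKM with vanillin. The log2 fold changes were -2.98 ± 0.26 for *GND2* and 1.44 ± 0.23 for *GND1*, and in BY4741 they were -1.65 and 1.27. *SOL4* fell from 250 and 468 FPKM to 38.0 and 35.8 FPKM beside *SOL3* at 605 and 570 FPKM and then 1180 and 876 FPKM, which did not pass (0.66; edgeR FDR = 0.076). *TKL2* and *NQM1* fell by 3.14 and 1.73 on the log2 scale, and their partners *TKL1* and *TAL1* stood at 0.37 and 0.03, neither called.
In hexose phosphorylation the lowered gene was instead the more abundant one in SD. *HXK1* fell from 889.6 and 1810 FPKM to 440 and 302 FPKM (-1.95 ± 0.42), and *HXK2*, the hexokinase used on glucose, rose from 617 and 627 FPKM to 1849 and 1569 FPKM (1.33 ± 0.17). In BY4741 *HXK1* stood at -0.35 and *HXK2* at 1.34. The calls of *HXK1*, *PGK1* and *ENO1* held in 3, 3 and 4 of 8 fits. *PGM2*, the more abundant phosphoglucomutase in SD, fell while *PGM1* went from 96.2 and 91.8 FPKM to 179 and 172 FPKM, under 2-fold. Of 26 genes of glucose phosphorylation and glycolysis 5 were lowered and 2 raised (all kept; median -0.45, or -0.24 without the first SD library, against 0.24 in BY4741). Besides *HXK1*, the glucokinase *GLK1* (-1.64), the phosphoglycerate mutase homologue *GPM2* (-1.78), *PGK1* (-1.05) and *ENO1* (-1.05) were lowered, and *PDC5*, a pyruvate decarboxylase, was raised besides *HXK2*. Over 17 isoenzyme pairs with a lowered member, chosen with these values known, that member was the less abundant of the pair in SD in 10 and the more abundant in 7, and the partner was raised in 2 and not called in 15.

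Genes of respiration had mostly small negative values. Of 39 genes of the respiratory chain and ATP synthase 8 were lowered, 36 were negative and the median was -0.73, against 0.25 in BY4741. These genes are short, with a median length of 462 bases. With the length trend removed 5 of the 8 were kept and the median in the deletion strain was -0.43. All genes tested of up to 400 bases had medians of -0.39 in the deletion strain and 0.24 in BY4741. For genes of 400 to 800 bases these were -0.265 and 0.02. *NDE2*, an external NADH dehydrogenase, went from 39.5 and 55.6 CPM to 8.38 and 7.83 CPM (-2.55 ± 0.33), beside *NDE1* at 0.62, not called. *COX5B*, the hypoxic form of a cytochrome oxidase subunit, fell from 167 and 146 CPM to 60.6 and 56.7 CPM (-1.41 ± 0.19) and *CYB2*, lactate dehydrogenase, by 2.01. The uncharacterised succinate dehydrogenase homologues *SHH4* and *SDH9*, chosen after their values were seen, changed by -2.07 and -2.08. In the tricarboxylic acid cycle *LSC2* and *MDH1* were lowered (2 of 20; 1 kept, *MDH1* losing its call and holding in 3 of 8 fits), and in fatty acid beta-oxidation *POT1*, *ECI1* and *SPS19* (3 of 20, all kept). *POT1*, the peroxisomal thiolase, had 33.2 and 25.7 CPM in SD and 5.98 and 5.87 CPM with vanillin.

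Of 42 antioxidant and nitrosative stress genes, 13 were lowered and 1 raised (median -0.60; 7 of the lowered and the raised gene kept). *CTT1*, cytosolic catalase, fell from 686 and 1277 CPM to 106 and 74.3 CPM (-3.44 ± 0.48; edgeR FDR = 0.0043). *GTT1*, a glutathione transferase, went from 449 and 395 CPM to 79.0 and 88.8 CPM (-2.33 ± 0.20). In both genes the groups lay far apart relative to their replicates. *TSA2*, the minor cytosolic peroxiredoxin, was lowered by 2.04 while *TSA1*, the major one, changed by -0.69, past the FDR limit but under 2-fold. The glutaredoxins *GRX1* and *GRX2* changed by -1.37 and -1.39, the peroxidases *HYR1* and *GPX1* by -1.49 and -1.42 (*GPX1* held in 2 of 8 fits), and *ECM4* by -1.66. The one raised member was *YHB1*, the flavohaemoglobin that removes nitric oxide, from 122 and 117 CPM to 679 and 658 CPM.
Glycerol genes fell in 4 of 16 cases (4 kept), or 25.0% against 4.56% of all genes: *GPD1* (-1.71), *GPP2* (-1.19), *GUT2* (-1.88) and *DAK1* (-1.31). The partners *GPD2* and *GPP1* stood at 0.40 and -0.04, not called. *DAK2*, the partner of *DAK1*, stood at -1.10 and was not called either (edgeR FDR = 0.15). Among 28 aldehyde reductases and related oxidoreductases, 4 were lowered and 5 raised (all kept). These shares were 14.3% and 17.9%, against 4.56% and 2.83% of all genes. *GRE3*, an aldose reductase, fell from 472 and 683 CPM to 150 and 167 CPM, and *YJR096W* of the same family changed by -1.79. The cytosolic aldehyde dehydrogenase genes *ALD2* and *ALD3* lie in tandem with a gap of 689 bases. *ALD3* fell from 701 and 1115 CPM to 142 and 117 CPM (-2.81 ± 0.32), and *ALD2* changed by -0.96, under 2-fold. The mitochondrial *ALD4* was lowered (-1.19) and *ALD5* raised (1.14).

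Zap1p activates zinc uptake genes when zinc is short, and 5 of 21 zinc genes were lowered (4 kept), 1 of them, *ZRT1*, an uptake transporter. *ZRT1* fell from 4175 and 2668 CPM to 346 and 615 CPM (-2.83 ± 0.36; edgeR FDR = 0.0034), and in BY4741 its log2 fold change was -0.34; the difference between strains was not called (edgeR interaction FDR = 0.10). *ADH4*, an alcohol dehydrogenase 4670 bases from *ZRT1*, went from 380.1 and 377 CPM to 81.0 and 47.0 CPM (-2.56 ± 0.39). *ZAP1* itself fell from 112 and 126 CPM to 44.7 and 48.9 CPM (-1.35 ± 0.20). Both vanillin libraries of the deletion strain were low in these 3 genes, while *ZRT2*, the low-affinity transporter, stood at -0.19 and was not called. *DPP1*, a lipid phosphatase, was the other lowered member besides *ZPS1*.

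Some nitrogen and one-carbon genes were lowered. *GAP1*, the general amino acid permease, fell from 261 and 313 CPM to 43.5 and 46.2 CPM (-2.68 ± 0.29), against a log2 fold change of -0.04 in BY4741 (edgeR interaction FDR = 0.074, not called). *GAP1* was 1 of 6 lowered among 47 genes of nitrogen catabolite repression and permeases, or 12.8% against 4.56% of all genes (6 kept). The others were *PUT4* (-2.69), *CAR2* (-2.26), *DAL1* (-1.64), *DAL3* (-1.43) and *DUR3* (-1.24). The list as a whole moved little, with 28 genes negative, 19 positive and a median of -0.13, or 0.0012 without the first SD library. DESeq2 lowered 5 and raised 2. The calls of *PUT4*, *CAR2* and *DAL1* each held in 3 of 8 fits. Of the 4 parts of the glycine cleavage complex, which feeds one-carbon units, the 3 particular to it were lowered. *GCV2* went from 649.6 and 1312 CPM to 151 and 109 CPM (-2.92 ± 0.45), *GCV3* from 1205 and 681 CPM to 227 and 213 CPM, and *GCV1* changed by -1.69. Among 27 thiamine and vitamin genes *THI2*, *THI11* and *BIO4* were lowered, *THI11* having near-identical copies, and *VHR1*, the biotin regulator, was raised. The lowered share was 11.1%, against 4.56% of all genes, and the raised share 3.7%, against 2.83%.

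In the vacuole, 5 of 12 genes of proteases and their inhibitors were lowered (median -0.87; 4 kept). These include *PAI3* and *TFS1*, already counted among the general stress genes. *PRC1*, carboxypeptidase Y, fell from 2524 and 1877 CPM to 947 and 740.2 CPM (-1.38 ± 0.21), *APE3*, aminopeptidase Y, from 2870 and 2622 CPM to 917 and 1216 CPM, and *PEP4*, proteinase A, from 1388 and 1225 CPM to 596 and 676 CPM. In BY4741 *PRC1* and *PEP4* stood at -0.08 and -0.09 and *APE3* was lowered (-1.06). Of 34 autophagy genes 6 were lowered (3 kept), or 17.6% against 4.56% of all genes. Among them were *ATG8*, the ubiquitin-like protein of the autophagosome (-1.31), *ATG34* (-1.65) and *ATG39*, a receptor for nuclear autophagy (-1.39). *ATG5* was raised (1.08), and the calls of *ATG39* and *ATG5* held in 2 and 1 of 8 fits. Chaperones were divided, with 6 of 42 lowered and 3 raised (4 and 3 kept). These shares were 14.3% and 7.14%, against 4.56% and 2.83% of all genes. *SSA1*, a cytosolic Hsp70, fell from 3978 and 4226 CPM to 1662 and 1528 CPM (-1.36 ± 0.15), and *SSA4*, *SSE2*, *HSP31* and the disulphide isomerase *PDI1* changed by -1.23, -1.27 (held in 3 of 8 fits), -1.14 and -1.12. *HSP30*, a plasma membrane stress protein, went the other way, from 112 and 79.6 CPM to 629 and 421 CPM, as did *BTN2*, a factor that sequesters misfolded proteins, from 51.5 and 74.1 CPM to 221 and 336 CPM, and *APJ1*, a J-protein (1.17).

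Of the lowered genes, 130 were in no list. *DCS2* had 319 and 516 CPM in SD and 56.3 and 55.6 CPM with vanillin (-2.90 ± 0.39), and its homologue *DCS1* changed by -0.91 without passing. *GAD1*, glutamate decarboxylase, fell from 819 and 1078 CPM to 196 and 170 CPM (-2.37 ± 0.27), a value noted after the data were seen, as were the next. *RCK1*, a protein kinase, changed by -2.77, the eisosome and plasma membrane domain proteins *LSP1* and *SUR7* by -1.77 and -1.31, and *EMI1*, needed for early meiotic induction, by -1.94. *YHR033W*, of unknown role, went from 104 and 70.8 CPM to 11.6 and 12.1 CPM. *YMR090W*, also of unknown role, fell from 335 and 294 CPM to 60.6 and 70.0 CPM. In both, the 2 vanillin libraries lay close together and well below SD. The aspartyl protease *YPS6*, next to *GTT1* with a gap of 5984 bases, changed by -2.26.

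The raised genes were fewer in the main analysis, though not with library size alone, and 100 of the 156 were in no list. Among the largest rises were those of a permease homologue and an alcohol dehydrogenase. *MCH2*, a monocarboxylate permease homologue at chrXI:6107-7528, had 7.22 and 5.05 CPM in SD and 807 and 499 CPM with vanillin (6.73 ± 0.39; edgeR FDR = 8.1e-05). Its divergent neighbour *YKL222C*, a putative zinc-cluster factor 486 bases away, rose from 21.2 and 24.0 CPM to 131 and 120 CPM (2.47 ± 0.21). *ADH7*, an NADPH-dependent alcohol dehydrogenase, rose from 16.4 and 14.3 CPM to 499.9 and 676 CPM, while *ADH6*, of the same family, stood at 0.52 and was not called. The log2 fold change of *ADH7* was 5.26, against 3.10 in BY4741. *AAD3*, a putative aryl-alcohol dehydrogenase 3734 bases from *ADH7*, was raised by 1.12 (held in 3 of 8 fits), and *YCR102C*, on its other side, stood at 0.90, under 2-fold. The overlapping reading frames *AQY2* and *YLL053C*, parts of an aquaporin gene that is broken in this background, changed by 3.46 and 2.66 with reads that cannot be assigned to one of them. *YLR410W-A*, a Ty element frame inside *YLR410W-B*, was at least 4.68-fold higher, with reads that other Ty copies may share.
In drug efflux and pleiotropic drug resistance, 8 of 37 genes were raised, or 21.6% against 2.83% of all genes (6 kept; median 0.42, or 0.21 without the second SD library). In BY4741 the list median was 0.66, with 7 members raised and 1 lowered, and *PDR5* stood at 2.45. *PDR5*, the main drug efflux transporter, rose from 451 and 433 CPM to 3116 and 3231 CPM (2.84 ± 0.18), and *PDR15*, its homologue, stood at -0.53 and was not called. *PDR12*, the exporter of weak organic acids, went from 68.8 and 75.0 CPM to 378 and 544 CPM (2.68 ± 0.29). *RSB1*, a sphingoid base translocase, rose from 18.3 and 16.0 CPM to 57.8 and 58.7 CPM, and *PDR3* from 35.1 and 50.1 CPM to 82.2 and 94.3 CPM, against 0.68 for *PDR1*, which did not pass (edgeR FDR = 0.051). *ICT1*, *RTA1* and *LAF1* changed by 1.44, 1.30 and 1.05, the last 2 being called in 5 of 8 fits with 1 library left out, and *SNQ2*, a second efflux transporter, by 1.51.

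Metal, calcium, phosphate and lipid genes rose in smaller numbers. In the iron uptake regulon 6 of 27 genes were raised, or 22.2% against 2.83% of all genes (3 kept), and DESeq2 raised 4. These 6 were the reductases *FRE1* (1.30), *FRE3* (1.09), *FRE5* (1.01) and *FRE6* (1.06), the siderophore transporter *ARN1* (1.25) and the mRNA decay factor *TIS11* (1.25). The regulon as a whole did not rise: 15 genes were positive and 12 negative, with a median of 0.05, against 0.45 in BY4741. With 1 library left out the median ranged from -0.07 to 0.24. The calls of *FRE3* and *FRE5* held in 2 and 3 of 8 fits. *FRE1* had 41.9 and 37.1 CPM in SD and 96.9 and 97.8 CPM with vanillin. Of 21 calcium and calcineurin genes 4 were raised (2 kept), or 19.0% against 2.83% of all genes, and 1 was lowered, *HSP12* (-5.72). The raised genes were the vacuolar calcium pump *PMC1* (1.12), the factor *CRZ1* (1.20, held in 1 of 8 fits), the kinase *CMK2* (1.74) and the glucan synthase *GSC2*. *GSC2* went from 308 and 251 CPM to 884 and 621 CPM (1.43 ± 0.22). In the phosphate regulon *PHO5* (1.77), *SPL2* (2.34) and *PHO84* (1.13) were raised and *PHM8* lowered (22 tested; 2 of the raised kept), with *PHO84* and *SPL2* held in 1 and 4 of 8 fits. The raised share was 13.6%, against 2.83% of all genes, and the lowered share 4.55%, against 4.56%. *INO1*, inositol phosphate synthase, rose from 398 and 499 CPM to 3554 and 2938 CPM, and its activator gene *INO2* from 26.0 and 21.5 CPM to 63.8 and 50.9 CPM (held in 4 of 8 fits). Of the hexose transporters the low-affinity *HXT3* was raised, from 1475 and 574 CPM to 5612 and 2264 CPM, with the call held in 3 of 8 fits, and *HXT1* (4 of 8), *HXT5* and *HXT7* were lowered.

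Of 61 ribosome assembly genes 3 were raised, or 4.92% against 2.83% of all genes, and DESeq2 raised 9. These 3 were *UTP20*, *UTP8* and *NOC4* (1 kept), held in 4, 2 and 3 of 8 fits. In all 57 of the 61 were positive, with a median of 0.73, against -0.63 in BY4741, and the median was 1.25 without the first SD library and 0.40 without the second. Of 19 RNA helicases of ribosome assembly 0 were called by edgeR (11 higher at unadjusted p under 0.05; 6 raised by DESeq2), and all 19 were positive with a median of 1.01, or 1.62 and 0.55 without the first and the second SD library. None of 135 cytosolic ribosomal protein genes was called by edgeR (2 higher and 9 lower at unadjusted p under 0.05; 0 by DESeq2), and the sign of their median was not stable: -0.10, but 0.27 with the length trend removed, 0.02 with library size alone and 0.14 without the first SD library. None of 34 proteasome genes was called (0 higher and 6 lower at unadjusted p under 0.05; 0 by DESeq2). Mitochondrial ribosomal proteins were negative in 67 of 69 genes with a median of -0.44, or -0.25 with the length trend removed. Of these genes 2 were lowered, *MRPS12* and *MRP2* (1 kept), or 2.9% against 4.56% of all genes.

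The same comparison in BY4741 gave 38 lowered genes (0.69%) and 112 raised genes (2.03%). Of the 251 genes lowered in the deletion strain, 190 had the same sign in BY4741 and 28 were also lowered there, which is 11.2% of the deletion strain's list and 73.7% of BY4741's. The medians over those 251 genes were -1.49 and -0.35, but the first is set by the choice of genes. Of the 156 raised genes 134 had the same sign and 51 were also raised, 32.7% of one list and 45.5% of the other. A call in one strain alone does not show a difference between strains, which was tested by the interaction of strain and vanillin. That test called 5 of 5506 genes (0.0908%), all with the lower response in the deletion strain, while 1130 had an unadjusted p under 0.05 and DESeq2 called 215. With 1 library left out, edgeR called no gene with a lower response in the deletion strain except in fits without the second vanillin library of BY4741 (2 genes) and without the second SD library of the deletion strain (90 genes).
The 5 genes were *ZPS1*, *SNG1*, *GPG1*, *TDH1* and *BDH1*. *SNG1*, a drug resistance gene known as a Yrr1p target, had 49.6 and 28.6 CPM in SD and 42.3 and 30.9 CPM with vanillin in the deletion strain, and 30.7 and 52.4 CPM against 431 and 502 CPM in BY4741. It was thus flat in one strain and high with vanillin in the other. *GPG1*, a subunit of a G protein of glucose signalling, went from 119 and 109 CPM to 30.7 and 29.3 CPM in the deletion strain and from 88.9 and 93.1 CPM to 211 and 123 CPM in BY4741. *BDH1*, butanediol dehydrogenase, fell from 689.6 and 624 CPM to 268 and 267 CPM in the deletion strain and stood at 444 and 416 CPM and then 708 and 692 CPM in BY4741. In both genes the vanillin libraries lay below SD in the deletion strain and above SD in BY4741.

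**Figure D5:**
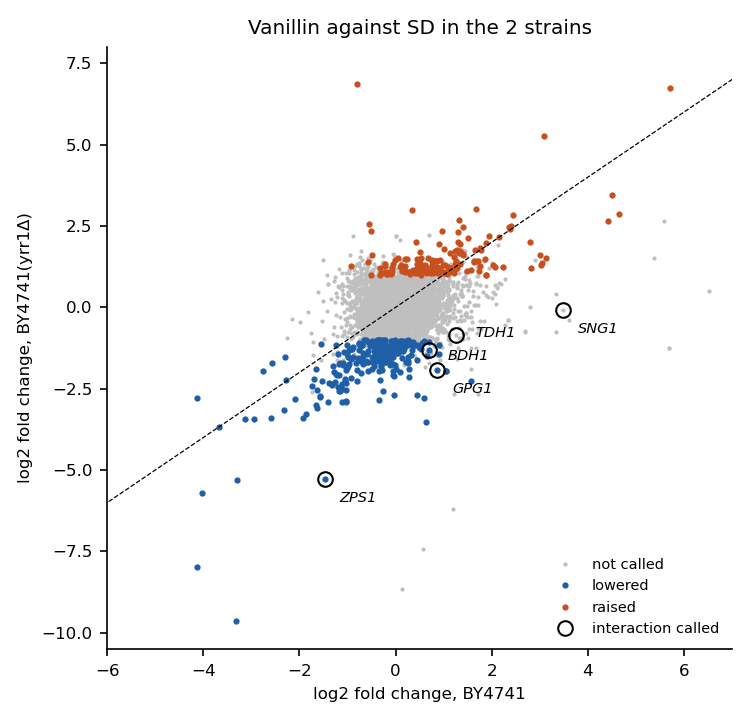
Log2 fold change with vanillin in BY4741(*yrr1*Δ) (vertical axis) against that in BY4741 (horizontal axis), 1 point a gene; lowered (blue) and raised (orange) refer to BY4741(*yrr1*Δ), circles mark the 5 genes whose interaction was called, and the dashed line is equality. Most lowered genes lie below the line, with medians of -1.49 and -0.35, but their choice by the values in BY4741(*yrr1*Δ) largely sets this.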

How the data were processed

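RNA was sequenced from 8 cultures, 2 in each of 4 groups, on an Illumina instrument. The authors deposited for each library a table of expected counts and of FPKM values per gene, and a joined FPKM table; genes at 0 have no row in the library tables, and all 849 such gene and library pairs were listed at 0 in the joined table. The genome build in the submitters' processing notes is R64; the aligner and the counting tool are not given in the sources used here. Deposited tables of the authors' own comparisons (ratios and probabilities) were not used.

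Expected counts deposited by the authors were rounded and tested with edgeR 4.0.16 (R 4.3.3): filterByExpr, TMM, quasi-likelihood fit of 1 mean per group over 8 libraries, Benjamini-Hochberg adjustment over 5506 of 5782 genes. Called genes had an adjusted p of at most 0.05 and a fold change of at least 2. CPM values are TMM-normalised. The interaction of strain and vanillin was a contrast of the same fit. FPKM values deposited by the authors served for levels within isoenzyme pairs. P-values measure the spread between 2 cultures a group. Names, coordinates and promoter windows are from the RefSeq R64 assembly; all 5782 identifiers matched. There were 220 genes overlapping another, whose reads may be shared.

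Genes named were the 15 largest changes in each direction, up to 8 called members per list, *YRR1* and its neighbours, and isoenzyme partners; a few others were chosen after their values were seen, as the text says. The members and the 49 gene lists were chosen with earlier results of these data known, so lists are described by counts and medians, with no test of the list. Alternatives were other scalings and filters, DESeq2 1.42.0, limma 3.58.1 on log2(FPKM + 1) and log2(FPKM + 0.1), the strain's 4 libraries alone, a replicate block, other limits, each library left out, and, added after the data were seen, removal of a length trend (lowess, span 0.3). The procedure was tested on simulated data.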

Additional observations from a re-analysis of the deposited data

Results flagged for a closer look

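Under the same contrast, 5 genes responded differently in the 2 strains by edgeR's test of the strain and vanillin interaction (FDR = 0.037 for each). The difference, as the log2 response of BY4741(*yrr1*Δ) minus that of BY4741, was -3.80 for *ZPS1*, -3.58 for *SNG1*, -2.80 for *GPG1*, -2.12 for *TDH1* and -1.999 for *BDH1*. *TDH1*, a glyceraldehyde-3-phosphate dehydrogenase, had 4380 and 3879 CPM in SD and 2402 and 2181 CPM with vanillin in the deletion strain, and 3094 and 3270 CPM against 8944 and 6377 CPM in BY4741. *ZPS1* fell in both strains, from 877 and 724 CPM to 388 and 192 CPM in BY4741 and further in the deletion strain.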

How the results depend on the processing

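The counts moved with the limits: 6 genes were raised and 9 lowered at an FDR of 0.001, 57 and 111 at 0.01, and 252 raised with no fold limit. With library size alone 242 were raised, and with the strain's 4 libraries alone 100. Leaving out 1 library gave 81 to 178 raised and 84 to 277 lowered genes. For the interaction, genes with a higher response in the deletion strain numbered 0 in the main analysis, 60 by DESeq2 and 1 by limma with a pseudocount of 0.1. Those with a lower response numbered 155 by DESeq2, 0 at an FDR of 0.001 or 0.01, 0 with the replicate block, and 0 to 90 with 1 library left out, the 90 without the second SD library of the deletion strain. Replicate numbers did not pair the deletion strain's cultures (r of 0.18 between its groups). Between the SD groups of the deletion strain and BY4741 r was -0.584, so their replicates tended to differ in opposite order. The replicate block joined cultures of the same number, so it could not take up this crossed order. That block gave 121 raised and 203 lowered genes. Of 205 named called genes 0 reversed and 80 held in every setting. Signs reversed for uncalled genes only. With library size alone *GPP1* stood at 0.077 and *SNG1* at 0.033, and by limma with pseudocounts of 1 and 0.1 *GPP1* stood at 0.107 at both and *SNG1* at 0.064 and 0.067. With the length trend removed *GPP1* stood at 0.11. With 1 library left out, *TAL1* ranged from -0.033 to 0.077, *GPD2* from -0.048 to 1.04, *GPP1* from -0.11 to 0.025 and *SNG1* from -0.44 to 0.34. The causes were not tested.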

Other observations

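Some further groups were put together after their members' values were seen, so their counts are descriptions. In pyrimidine synthesis and uptake 4 of 13 genes were raised and 1 lowered. *URA1*, dihydroorotate dehydrogenase, rose from 248 and 276 CPM to 1171 and 917 CPM (1.99 ± 0.24) and *FUI1*, the uridine permease, from 88.1 and 47.2 CPM to 443 and 230 CPM (2.32 ± 0.37). *URA2* (1.16) and the uracil permease *FUR4* (1.25, called in 3 of 8 fits with 1 library left out) were also raised, while *URA10*, the minor orotate phosphoribosyltransferase, fell from 60.6 and 69.1 CPM to 18.4 and 15.7 CPM.

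Of 16 genes of NAD synthesis, salvage and repair 6 were lowered (5 kept with the length trend removed). They were *BNA1*, *BNA4* and *BNA6* of the kynurenine route (-1.49, -1.24 and -1.09), the nicotinamidase *PNC1* (-1.64) and the NADHX repair enzymes *NNR1* and *NNR2* (-1.33 and -1.32). Of 19 genes of cytochrome c oxidase assembly 7 were lowered, with a median length of 594 bases, and 2 were kept. Regulators of pseudohyphal growth rose in 5 of 10 cases (4 kept): *SFG1* (1.68), *SOK2* (1.47), *PHD1* (1.34), *KSS1* (1.12) and *MGA1* (1.99), the last at 7 to 55 counts and called in 0 of 8 fits with 1 library left out. *SFG1* went from 53.4 and 54.3 CPM to 164 and 180 CPM.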
